A study of Homo sapiens with 8 samples.

Results

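SALL1, SALL2, SALL3 and SALL4 are the 4 human members of the spalt-like family of zinc finger transcription factors. They were followed here in an Ewing sarcoma cell line in which the transcription factor FEZF1 was silenced. The 4 genes were taken by name out of 34792 genes summed from the deposited transcript estimates, and they were picked because their values with and without doxycycline were already known. Their doxycycline values are therefore given as a description, without a test. Of the 4, 3 (SALL1, SALL2 and SALL4) passed the filter on low counts and SALL3 did not.

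Spalt-like proteins carry pairs of C2H2 zinc fingers spread along the protein and act largely as repressors. A short stretch at the very start of the protein binds the NuRD complex, which removes acetyl groups from histones and remodels nucleosomes. SALL1 and SALL4 are known from development of the kidney, limb and ear, and from heterozygous mutations that cause malformation syndromes. SALL4 is also a factor of embryonic stem cells and is degraded through cereblon in the presence of thalidomide. SALL2 is known from neural tissue and the eye, and it acts on the cell cycle inhibitor p21.

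A673 is an established Ewing sarcoma line driven by the EWSR1-FLI1 fusion. All 8 libraries came from A673/TR/shFEZF1 cells, which express the tetracycline repressor and carry a hairpin RNA against FEZF1 under an inducible promoter. The 4 control libraries were untreated and the 4 doxycycline libraries received 1 µg/mL for 72 h. Each group held the polyclonal population and clones 3, 5 and 6, so that each of the 4 origins gave 2 libraries. Each clone is a single line grown from one cell, and according to the methods clones were retained for a strong loss of FEZF1 protein. Every library carried the hairpin, so an effect of doxycycline itself cannot be told apart from one of the silencing. Between 26719886 and 42422421 reads per library were assigned to transcripts. The deposited table of the clone 5 control had another row order than the other 7 tables, and the SALL values, the most alike genes of SALL1 and the list genes that passed are therefore also given without clone 5.

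FEZF1, the target of the hairpin, was measured first. It stood at 96.4, 70.5, 107.1 and 74.4 CPM (counts scaled to library size, here by the TMM method) in the controls of the polyclonal population and clones 3, 5 and 6. In the doxycycline libraries of the same origins it stood at 60.6, 43.0, 60.8 and 36.4 CPM. Every doxycycline library lay below every control library (2-sided exact permutation test over libraries, p = 0.0286, the lowest value that 4 against 4 libraries allow). With the libraries paired by origin, the 2-sided exact sign-flip permutation test over 4 pairs gave p = 0.125, the lowest value that 4 pairs allow. According to the methods, clones were retained for a strong loss of FEZF1 protein with doxycycline. The p-values thus describe these libraries and are no independent test of the silencing. The labels for Ewing sarcoma cells were also compared with marker genes. All 8 markers on the list passed the filter, led by the cell cycle gene CCND1 at a mean of 2375 CPM over the 8 libraries and the surface protein CD99 at about 1524 CPM in the controls. Of 9 markers of blood, epithelial, endothelial, fibroblast, liver and keratinocyte cells, 4 passed the filter. The 9 together came to between 4.38 and 19.5 CPM per control library and between 4.68 and 19.2 CPM per doxycycline library. Decorin (DCN) was the most abundant of them at 11.3 ± 5.64 CPM (SD, n = 4) in the controls, and CD3E was at 0 in all 8 libraries. With doxycycline DCN stood at 10.2 ± 5.75 CPM and was lower in 3 of 4 origins. The sum is mostly DCN, and the other 3 tested markers, EPCAM, PECAM1 and LUM, were higher with doxycycline in 4 of 4 origins, which held for 17.4% of all genes tested. EPCAM, an epithelial surface protein, had 4, 1, 48 and 3 reads in the controls and 18, 16, 88 and 22 with doxycycline, in the order polyclonal population and clones 3, 5 and 6. PECAM1 went from 0.361 to 0.680 CPM and LUM from 1.26 to 1.81 CPM on average. None of the 4 tested markers passed (edgeR, adjusted p of EPCAM 0.941 without a block and 0.0501 with origin as a block; 1 had an unadjusted p under 0.05 without the block, and DESeq2 passed 0). The part of such cells in the results below was not tested.

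The start of the coding sequence is shown for SALL2 and SALL3, because it is where 2 forms of SALL2 part. The first 36 coding bases were read from the GENCODE release 44 transcripts, and capitals mark the 27 positions at which SALL3 and the SALL2 transcript with the distal first exon hold the same base.
SALL2, distal first exon: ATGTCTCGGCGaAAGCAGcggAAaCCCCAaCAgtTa
SALL3: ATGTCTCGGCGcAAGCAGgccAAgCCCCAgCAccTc
SALL2, proximal first exon: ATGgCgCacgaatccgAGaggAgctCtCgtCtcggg
SALL2 from the distal first exon matched SALL3 at 27 of these 36 bases, and SALL2 from the proximal first exon matched it at 12, its capitals marking those of the 27 positions where it holds the same base too. Over 19788 other protein-coding genes the median was 12 matches to SALL3 and 61.4% had at least 12. Of the same genes 0.0152% had 27 or more, among them the zinc finger gene BCL11B with 28, which was picked out after its value was seen. The coding start of SALL3 was thus largely present in the distal form of SALL2, whereas the proximal form matched it no better than the median gene.

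Both SALL2 transcripts lie on the minus strand of chromosome 14 (GRCh38). The distal first exon spans 21536849 to 21537121 (273 bases), the proximal first exon spans 21526061 to 21526346 (286 bases), and the starts are 10775 bases apart. Both are spliced to the same second exon, 21521080 to 21525654 (4575 bases), which holds most of the coding sequence and the whole 3′ end. The coding part of the distal first exon is 73 bases (chr14:21536849-21536921) and that of the proximal one 67 bases (chr14:21526061-21526127). They are printed with the start codon in capitals.
SALL2 distal first exon, coding bases: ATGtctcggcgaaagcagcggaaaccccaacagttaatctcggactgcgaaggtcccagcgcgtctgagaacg
SALL2 proximal first exon, coding bases: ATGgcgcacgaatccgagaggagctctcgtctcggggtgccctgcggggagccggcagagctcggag
Each leaves a remainder of 1 base after whole codons, so that both enter the second exon in the same reading frame. The complete coding sequences come to 3021 and 3015 bases. In the deposited tables the distal form was NM_005407.3 (4848 bases) and the proximal form NM_001364564.1 (4861 bases). They were assigned to the exons by their lengths, which equal summed exons built from 2 annotations. The splice boundaries and the proximal start came from GENCODE transcripts SALL2-207 and SALL2-202. The distal start and the shared 3′ end were set to the limits of the RefSeq gene.

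**Figure D1:**
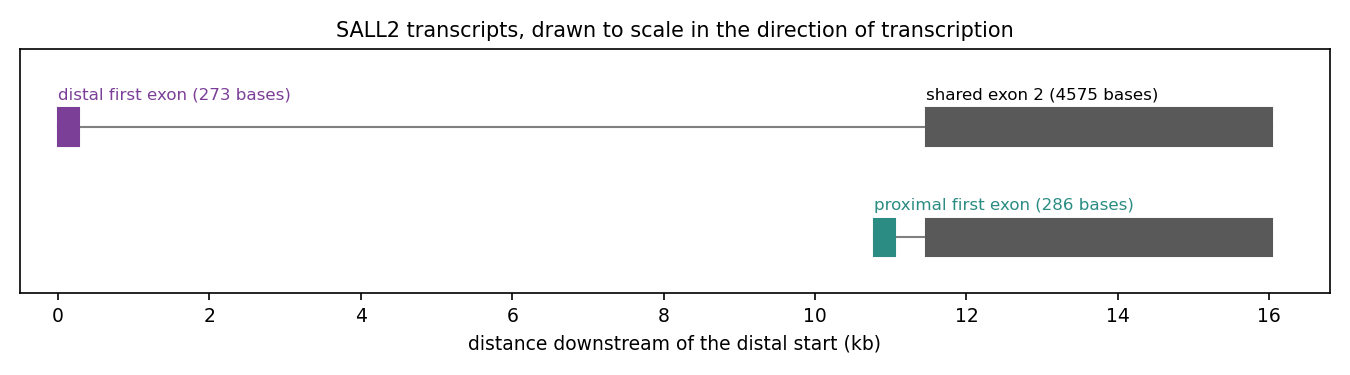
Gene model of the SALL2 transcripts with the distal and the proximal first exon, drawn to scale along the direction of transcription, with the distance from the distal start in kb. Boxes are exons and lines are introns; the first exons are 273 and 286 bases long and the second exon of 4575 bases is shared.

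The sequence before each SALL2 start is given because the transcripts from these starts had different ratios between the groups. The distal promoter (RefSeq, GRCh38.p14, chr14:21537072-21537371, minus strand) runs from 250 bases before to 50 bases after the RefSeq gene start at 21537121, which is the first base of the distal first exon. For the proximal start, the 250 bases upstream of the outermost annotated exon there were read from GRCh38 (chr14:21526501-21526750, minus strand), which end 154 bases before the proximal start. Capitals mark GGGCGG or its complement CCGCCC, the GC box.
SALL2 distal promoter: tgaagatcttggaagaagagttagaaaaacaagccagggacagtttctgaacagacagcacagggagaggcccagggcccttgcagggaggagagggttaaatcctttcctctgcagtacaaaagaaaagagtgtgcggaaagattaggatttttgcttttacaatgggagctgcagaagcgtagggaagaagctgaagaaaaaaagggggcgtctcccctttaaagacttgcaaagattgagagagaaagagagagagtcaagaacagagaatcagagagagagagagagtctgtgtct
SALL2 proximal upstream: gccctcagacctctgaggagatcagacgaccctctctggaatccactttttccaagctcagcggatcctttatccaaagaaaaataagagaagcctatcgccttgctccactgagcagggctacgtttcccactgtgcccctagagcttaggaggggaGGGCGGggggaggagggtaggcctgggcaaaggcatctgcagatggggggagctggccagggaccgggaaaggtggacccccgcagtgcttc
The 250 bases before the distal start held 0 GC boxes and the 250 bases upstream of the proximal exon held 1, and the 154 bases next to the proximal start were not searched. Of 35116 RefSeq promoter windows of that length, 42.6% held at least 1. The distal window was 46.0% G or C with 3 CG dinucleotides and the proximal window 59.2% with 7, beside medians of 58.0% and 11 over all promoters. Neither window held GGAAGGAA, a double ETS core searched on both strands as GGAAGGAA and TTCCTTCC, which 3.06% of promoters held. The promoter of SALL3, which had no reads in these libraries, was 84.4% G or C and held 49 CG dinucleotides, a count reached by 0.205% of promoters. It also held 3 GC boxes.

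The levels of the 4 genes were compared per transcript length, as deposited TPM (a level scaled for transcript length and library size) summed per gene. SALL2 was the most abundant member, between 59.2 and 120.6 TPM over the 8 libraries. SALL1 followed between 19.4 and 52.8 TPM, and SALL4 was between 0.191 and 2.66 TPM. SALL3 was at 0 in all 8 libraries. The ranges of neighbouring genes in this order did not overlap, and the order was the same in each of the 8 libraries. SALL2 exceeded SALL1 by 1.35-fold in the closest library (clone 3 with doxycycline) and by 6.23-fold in the most distant one (clone 5 control). SALL1 exceeded SALL4 by 10.7-fold to 256-fold, on SALL4 transcripts that held 49.4% of the reads implied by the authors' mean of that gene, against 98.1% for SALL1. For SALL3, a count of 0 allows up to 3 reads, or between 0.0707 and 0.112 CPM of assigned reads (counting error only).

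SALL2, on chromosome 14 from 21521080 to 21537216 in GENCODE, was lower with doxycycline in every origin. The controls stood at 317, 306, 354 and 315 CPM in the polyclonal population and clones 3, 5 and 6. The doxycycline libraries stood at 234, 197, 243 and 183 CPM. The highest doxycycline library lay below the lowest control, so the groups did not overlap. On average SALL2 went from 323 ± 21.3 to 214 ± 28.9 CPM (mean ± SD, n = 4 per group). The log2 ratio within each origin was -0.44, -0.63, -0.54 and -0.79, with a mean of -0.60 (SD 0.15). The fitted log2 fold change was -0.59 (standard error 0.112), and it was -0.60 with origin as a block and -0.63 without clone 5. As background to the same contrast, 15.9% of the 15993 genes tested were lower in 4 of 4 origins, and for 2.29% all doxycycline libraries lay below all controls. Nothing is read from SALL2 being among them, since the family was chosen on this contrast. In bulk RNA, fewer cells expressing a gene and less RNA per cell cannot be told apart.

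**Figure D2:**
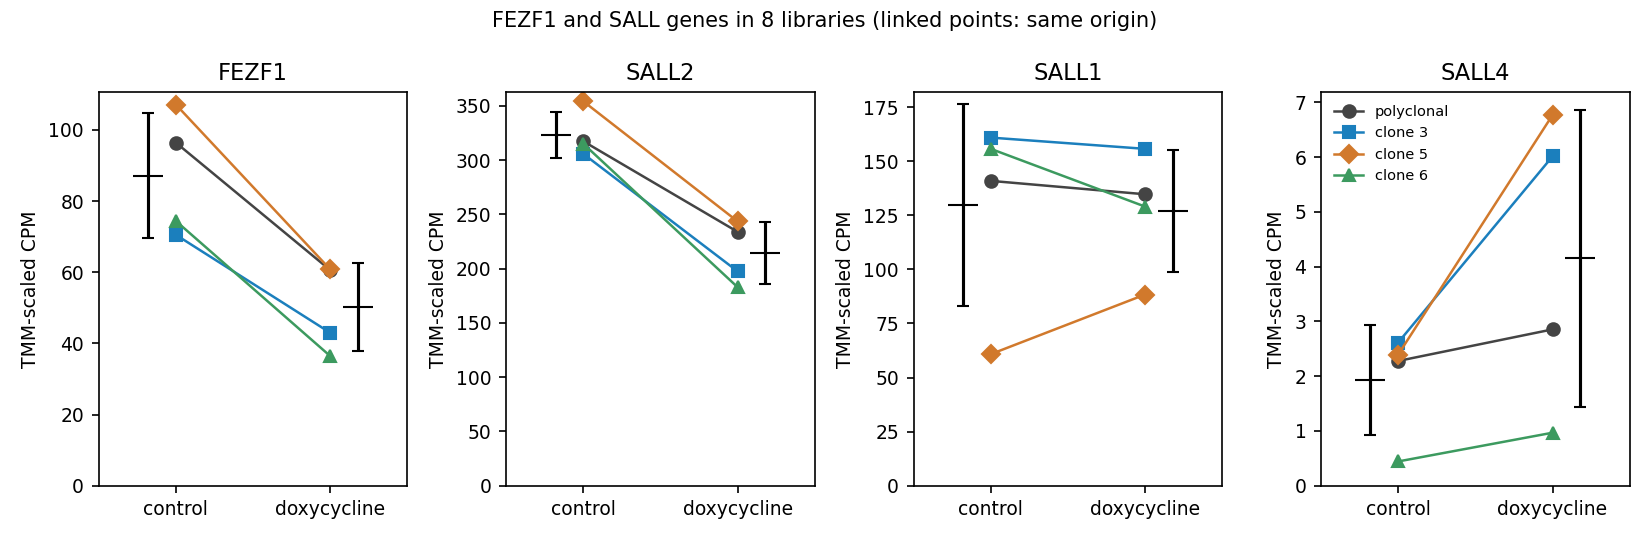
TMM-scaled CPM of FEZF1, SALL2, SALL1 and SALL4 in the control and doxycycline libraries; lines join libraries of the same origin and the bars beside the points are the mean and SD of 4 libraries. SALL2 ran between 306 and 354 CPM in controls and between 183 and 243 CPM with doxycycline, whereas clone 5 was low for SALL1 and clone 6 for SALL4.

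The difference in SALL2 lay mostly in the transcript with the distal first exon. This transcript stood at 160.2, 151.4, 183.8 and 178.5 CPM of assigned reads (without TMM scaling) in the controls of the polyclonal population and clones 3, 5 and 6. With doxycycline it stood at 87.5, 83.8, 97.6 and 76.8. These groups did not overlap, and the means were 168.5 ± 15.2 and 86.4 ± 8.69 (SD, n = 4 each). Of 37921 transcripts with at least 10 reads in 4 or more libraries, 1.58% lay lower without overlap in the same way, and nothing is read from this, since the family was chosen on this contrast. The log2 ratio within each origin was -0.87, -0.85, -0.91 and -1.22, a mean of -0.96 (SD 0.17).

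The transcript with the proximal first exon stood at 117.8, 105.8, 128.5 and 87.6 CPM of assigned reads in the same controls. With doxycycline it stood at 117.9, 87.8, 114.9 and 79.2. The groups overlapped widely here, and clone 6 was the lowest and clone 3 the next lowest in both. The log2 ratio within each origin was 0.00, -0.27, -0.16 and -0.15, a mean of -0.14 (SD 0.11). On the same scale without TMM, all SALL2 reads together differed by -79.4, -89.3, -102.8 and -115.4 CPM of assigned reads, and the distal transcript made up 91.6%, 75.7%, 83.8% and 88.1% of this in the polyclonal population and clones 3, 5 and 6.

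The share of SALL2 reads given to the distal form was 54.2%, 56.6%, 56.9% and 64.2% in the controls. It was 40.5%, 47.0%, 44.3% and 47.2% with doxycycline. The distal form thus held more reads than the proximal form in each of the 4 controls and fewer in each of the 4 doxycycline libraries. The change in share was -13.2 percentage points (SD 3.07, n = 4 origins). As background, 28577 transcripts had a share to compare (genes with 2 or more such transcripts and at least 100 reads in every library). The share was lower without overlap for 1.28% of them, and lower by at least as much as here for 0.255%. Counted by gene, 73 of the 7744 genes with a share held such a fall. Nothing is read from these backgrounds, since the family was chosen on this contrast. Leaving out 1 origin at a time moved the change in the SALL2 share between -14.4 (without clone 3) and -11.9 points (without clone 6). It was -13.4 points without clone 5, and shares of TPM gave -13.0 points. Both forms together took 94.1% to 96.7% of SALL2 reads per library. Of the remaining transcripts, the largest was a predicted one of 4281 bases, with 3.77% of SALL2 reads in controls and 3.39% with doxycycline.

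Salmon divided reads between these forms on little sequence. The first exons make up 5.63% and 5.88% of the transcripts and the rest is identical. At an even spread of reads, that is 115 to 383 reads per library in the distal first exon and 124 to 294 in the proximal one. Both numbers follow from the lengths and were not counted directly. A noncoding gene, ENSG00000257096, lies on the opposite strand of the shared second exon from 21521083 to 21522660, and how strand was handled in the quantification is not given in the sources used here.

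**Figure D3:**
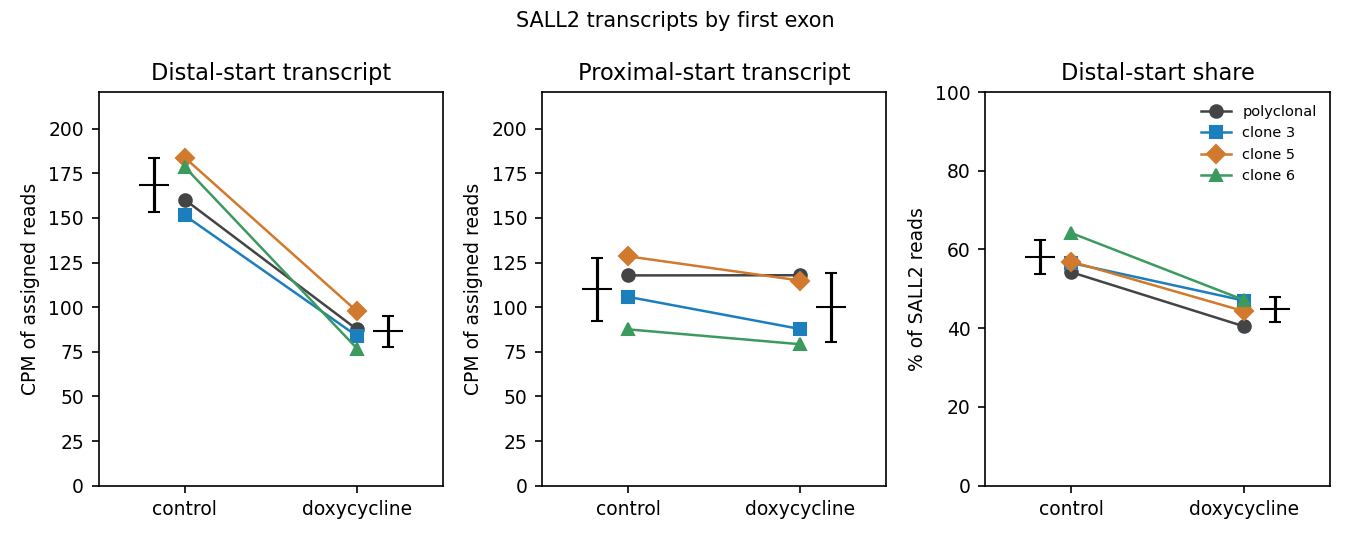
CPM of assigned reads of the SALL2 transcripts with the distal and the proximal first exon, and the share of all SALL2 reads given to the distal form, in control and doxycycline libraries; lines join libraries of the same origin and bars are the mean and SD of 4 libraries. The distal form had means of 168.5 and 86.4 and shares of 58.0% and 44.8%, whereas the proximal form stood at means of 109.9 and 99.9.

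SALL1, on chromosome 16 from 51135982 to 51152334 (minus strand), was lowest in clone 5 both with and without doxycycline. It stood at 141, 161, 60.8 and 156 CPM in the controls of the polyclonal population and clones 3, 5 and 6, and at 135, 156, 88.4 and 129 CPM with doxycycline. The groups overlapped over most of their range. The log2 ratio was -0.07, -0.05, 0.54 and -0.27, so that 3 origins were lower and clone 5 was higher. The fitted log2 fold change was -0.03 (standard error 0.285), 0.03 with the block and -0.14 without clone 5. Averaged over treatment, the origins ran from clone 3 (158 CPM) over clone 6 (142) and the polyclonal population (138) to clone 5 (74.6). The first 3 of these lay close together, with the range of the polyclonal libraries inside that of clone 6.

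A test of the 4 origins, with treatment in the model, was made for each gene, since the choice of the family did not use it. SALL1 differed among origins (adjusted p = 0.00913, Benjamini-Hochberg over the fit of all genes with edgeR's quasi-likelihood model), and so did SALL4 (edgeR, adjusted p = 0.00513). On simulated data this test made false calls at a rate above its threshold. SALL2 did not pass (adjusted p = 0.087). Of all 15993 genes tested, 39.4% passed, and the 2 of 3 SALL genes are to be read against that share. Among the 4 tested markers of other cell types, 3 passed as well (EPCAM, LUM and DCN). EPCAM was highest in clone 5, with a mean of 2.33 CPM there and between 0.248 and 0.523 in the other origins. LUM and DCN were lowest in clone 3, at 0.494 and 3.13 CPM. The part of such cells in the differences among origins was not tested. Without clone 5 the adjusted p of SALL1 was 0.228, and without clone 6 that of SALL4 was 0.286. With DESeq2's likelihood ratio test SALL2 passed as well (adjusted p = 0.0426), and likewise with a filter of 10 counts in every library (edgeR, adjusted p = 0.0397). The polyclonal population and the clones are represented by 2 libraries each, and these p-values measure the spread between such libraries.

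Nearly all SALL1 reads belonged to 1 transcript, NM_002968.3, with 97.4% of the reads in controls and 97.3% with doxycycline. The other one, NM_001127892.1, held 2.63% and 2.67%. SALL1 overlaps the noncoding genes ENSG00000261238 and ENSG00000285367 on the opposite strand.

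SALL4, on chromosome 20 from 51782331 to 51802521 (minus strand), was scarce and was higher with doxycycline in each origin. It had 89.5, 83.4, 66.2 and 11.3 estimated reads in the controls of the polyclonal population and clones 3, 5 and 6, and 93.1, 206.7, 203.9 and 23.2 with doxycycline. Scaled, these were 2.28, 2.61, 2.39 and 0.442 CPM against 2.86, 6.02, 6.77 and 0.967 CPM. Clone 6 was the lowest in both groups, and its doxycycline library lay below the other 3 controls, so the groups overlapped. The log2 ratio was 0.34, 1.19, 1.49 and 1.07, with a mean of 1.02 (SD 0.49). The fitted log2 fold change was 1.10 (standard error 0.638), 1.03 with the block and 0.86 without clone 5. As background, 17.4% of genes tested were higher in 4 of 4 origins. With 49.4% of its implied reads summed, the SALL4 values rest on the curated transcripts alone.

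Of these, NM_001318031.2 (3898 bases) had estimated reads in all 8 libraries. The longer NM_020436.5 (5209 bases) was listed at 0 in both polyclonal libraries, both clone 6 libraries and the clone 5 control. It had 63.6 and 119.4 reads in clone 3 without and with doxycycline, and 69.2 in clone 5 with doxycycline. With counts of this size no share of SALL4 transcripts is compared.

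The genes whose pattern over the 8 libraries was most like that of each SALL gene were listed by Pearson's r of log2 CPM, as a description. The 8 points share treatment and origin, which both enter r. For SALL2 these were the histone gene H2AC8 (r = 0.97), the calmodulin gene CALM3 (0.96), FEZF1 itself (0.96), BAZ2B (0.95) and the zinc finger gene ZNF497 (0.95). H2AC8 had only 4 to 23 reads per library. All 5 genes were lower with doxycycline in 4 of 4 origins, CALM3 from 469 ± 29.1 to 301 ± 30.5 CPM, as were 15.9% of all genes tested. Nothing is read from this, since they were picked for likeness to SALL2 over the same libraries. For SALL1 they included ID4, an inhibitor of basic helix-loop-helix factors (0.98), SLC25A43 (0.97), the cell adhesion gene CNTN4 (0.97) and PRKAR1B-AS1 (0.97). PRKAR1B-AS1 had only 10 to 34 reads per library. CNTN4 shared the low level of clone 5, with a mean of 1.32 CPM there against 5.42, 6.87 and 7.30 in the polyclonal population, clone 3 and clone 6. ID4 stood at 20.6 CPM in clone 5 and between 28.7 and 34.3 in the other origins. Without the clone 5 libraries, r over the other 6 was 0.94 for ID4, 0.80 for SLC25A43, 0.62 for CNTN4 and 0.91 for PRKAR1B-AS1. For SALL4 they were ITGB1BP2 (0.99), FAM83G (0.98), the corepressor gene TLE3 (0.98), MEG9 (0.98) and the metal-responsive factor MTF1 (0.97), and in each of these clone 6 had the lowest mean. Here too nothing is read from the shared low level, since these genes were picked for likeness to SALL4. ITGB1BP2 had as few as 3 reads in a library and MEG9 as few as 1.

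The 2 nearest protein-coding genes on each side of each SALL gene gave 16 genes, of which 10 passed the filter. None of the 10 passed the doxycycline test (edgeR, adjusted over all genes, without and with the block), and 1 had an unadjusted p under 0.05 without the block, as did 7.22% of all genes. Next to SALL2, METTL3, the RNA methyltransferase subunit, had a fitted log2 fold change of 0.05 without the block (standard error 0.088), and TOX4 had one of 0.15 (0.102). On the other side of SALL2 the olfactory receptor genes OR10G3 and OR10G2 were too low to test. Next to SALL1, TOX3 stood at 2.75 CPM in controls and 4.10 with doxycycline, NOD2 was too low to test, and HNRNPA1L3 was not among the genes summed. CYLD did not pass the filter either, with 228.6 reads in the clone 5 doxycycline library and a listed value of 0 in the other 7. How many CYLD reads lay on transcripts without a matched symbol was not computed. Neither its 0 values nor the single high value is therefore read as absence or as a change. The same holds for the other neighbours too low to test. Next to SALL3, NFATC1, ATP9B and GALR1 were tested whereas MBP was too low, so that SALL3 lay at 0 beside a transcribed NFATC1 of 14.7 CPM in controls. Next to SALL4, ZFP64 stood at 35.8 CPM, ATP9A at 18.8, TSHZ2 at 5.11 and NFATC2 at 0.414 in controls. In the test of the 4 origins 1 of the 10 passed, beside 39.4% of all genes. It was TSHZ2 (edgeR, adjusted p = 0.00928), summed from 59.1% of the reads implied by the authors' mean.

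Genes that work with or resemble the SALL family were examined in 7 lists, with 65 of 75 genes tested. Without a block none of the 65 passed (edgeR, adjusted over 15993 genes), and 1 gene in all did (0.00625% of genes tested). With the origin as a replicate block 12 of the 65 passed, 9 lower and 3 higher. The background with the block was 7.63% of all genes, 3.91% lower and 3.73% higher. DESeq2 without the block passed 5 of the 65 (1.45% of all genes passed) and with it 14 (12.0%). The lists were chosen with earlier results of these data known, so no enrichment is read from these counts. The changes named below are those with the block. With any 1 origin left out, 3 of the 12 passed each time, namely MBD2, NGFR and ZIC2, whereas CSNK2A2, MYC, HOXD11 and MEIS1 then passed in no such fit. The other 5 passed in 1 of the 4 fits: WT1 without clone 3, ZIC5 without clone 3, and MBD3, CDKN1A and GLI1 without the polyclonal population. Without clone 5 the log2 fold change of NGFR was 0.97, that of CSNK2A2 0.28 and that of MYC 0.18, and the 9 that fell lay between -0.83 (ZIC5) and -0.26 (MBD3). The median fitted log2 fold change with the block over all genes tested was 0.00.

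Of 15 subunits of NuRD, the complex that SALL proteins recruit, 2 passed with the block and both fell. MBD2, which binds methylated DNA, stood at 24.0, 28.0, 27.7 and 30.6 CPM in the controls of the polyclonal population and clones 3, 5 and 6 and at 16.7, 19.0, 14.3 and 16.1 CPM with doxycycline. The groups did not overlap (2.29% of all genes in this direction), and the log2 fold change was -0.74 (standard error 0.101, edgeR with the block, adjusted p = 0.01). Its paralog MBD3 changed by -0.27 (adjusted p = 0.0353). The most abundant subunits, the histone chaperone RBBP4 and the remodelling ATPase CHD4, had log2 fold changes of 0.01 and -0.06, and the median of the list was -0.01. For 5 of the 15 subunits, among them GATAD2A, HDAC2 and CHD3, under 80% of the reads implied by the authors' mean were summed. Of 7 other zinc finger factors with a like NuRD-binding stretch, 5 were tested and 0 passed (edgeR with the block; 0 had an unadjusted p under 0.05 without it, and DESeq2 passed 0). The most abundant, BCL11B and ZNF512B, had log2 fold changes of 0.09 each.

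Of 11 partners, regulators and described targets of SALL2, 4 passed with the block. NGFR, the low-affinity neurotrophin receptor that binds SALL2, stood at 61.2, 82.9, 57.2 and 52.8 CPM in the controls and at 125.9, 162.5, 216.2 and 102.1 CPM with doxycycline, in the order polyclonal population and clones 3, 5 and 6. All 4 origins were higher and the groups did not overlap, which held in this direction for 2.64% of all genes. The log2 fold change was 1.22 (standard error 0.156, edgeR with the block, adjusted p = 0.00861). CSNK2A2, a catalytic subunit of the kinase CK2, rose by 0.37 on the log2 scale (adjusted p = 0.0303), on 75.3% of the reads implied by the authors' mean. The other catalytic subunit CSNK2A1 had a log2 fold change of -0.01. MYC rose by 0.26 (adjusted p = 0.0442) and CDKN1A, which encodes p21, changed by -0.41 (adjusted p = 0.018). CCND1, the most abundant of the list, had a log2 fold change of -0.06. The median of the list was 0.08.

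Of 12 pluripotency factors that work with SALL4, 7 were tested and 0 passed (edgeR with the block; 0 had an unadjusted p under 0.05 without it, and DESeq2 with the block passed 1). The most abundant were SOX2 at 85.4 CPM and LIN28B at 72.9 CPM in controls, with log2 fold changes of -0.10 and 0.17. NANOG and POU5F1 were near 1 CPM, and TDGF1 was not among the genes summed. Of 11 nephron progenitor factors that work with SALL1, 9 were tested and 3 fell with the block. WT1 changed by -0.34 (edgeR with the block, adjusted p = 0.0301), HOXD11 by -0.27 (0.0268) and MEIS1 by -0.30 (0.0371). All 3 were lower in 4 of 4 origins, as were 15.9% of all genes tested, and they were named because this fit called them. The median of the list was -0.15. Of 8 genes of the cereblon ligase and its zinc finger substrates other than SALL4, 8 were tested and 0 passed (edgeR with the block; 0 had an unadjusted p under 0.05 without it, and DESeq2 passed 0). Its adaptor DDB1 had a log2 fold change of 0.02 and its scaffold CUL4B one of 0.12.

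Of 11 other developmental C2H2 factors, 10 were tested and 3 fell with the block. ZIC2 changed by -0.65 (adjusted p = 0.00874), ZIC5 by -0.82 (0.0212) and the Hedgehog effector GLI1 by -0.77 (0.0268). Of the 10, 7 were lower in 4 of 4 origins and 0 were higher in 4 of 4, beside 15.9% and 17.4% of all genes. No enrichment is read from this, since the list was chosen with earlier results known. The most abundant member, GLI3, had a log2 fold change of -0.16. The median of the list was -0.39. Of the 8 Ewing sarcoma markers, 4 passed with the block, beside 7.63% of all genes. FEZF1 and LIPI fell and NR0B1 and NKX2-2 rose. Without the block none of the 4 passed (edgeR, adjusted p = 0.29, 0.876, 0.125 and 0.825 in that order), though 2 of the 8 markers had an unadjusted p under 0.05 and DESeq2 without the block passed 2.

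**Figure D4:**
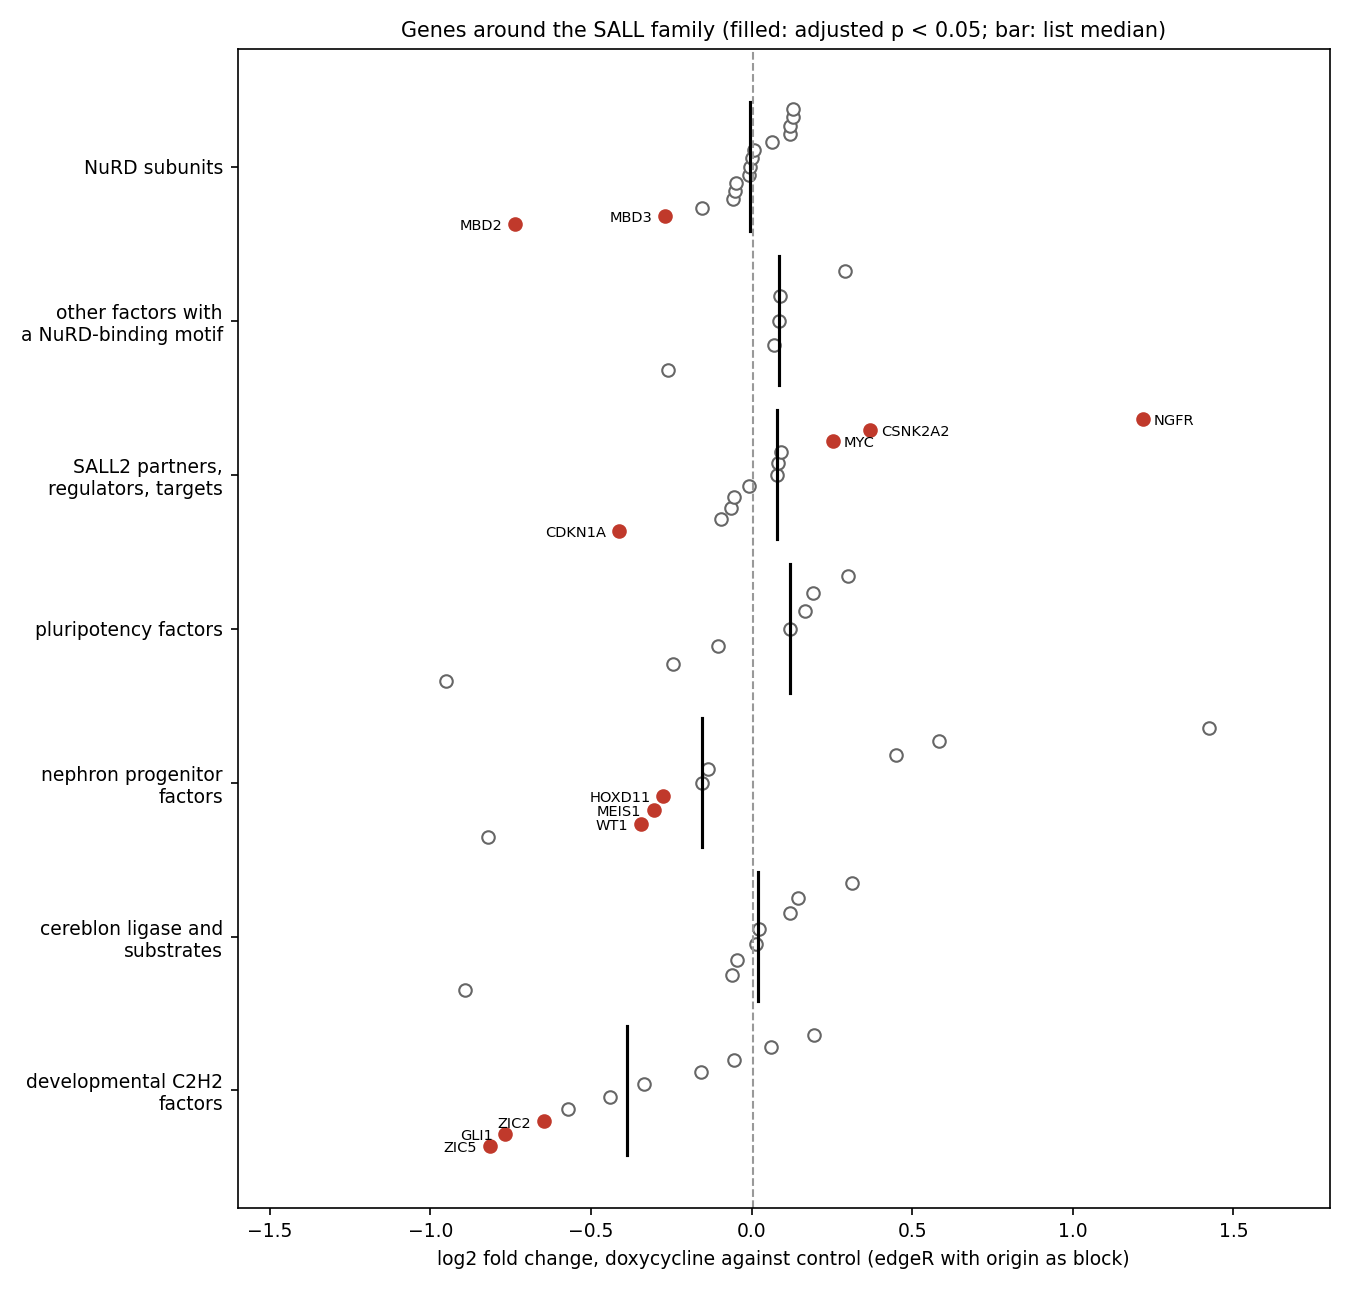
Fitted log2 fold change, doxycycline against control, of the tested members of 7 lists of genes that work with or resemble the SALL family (edgeR with origin as a block). Filled points passed an adjusted p of 0.05 and are named, black bars are list medians and the dashed line is the median of all 15993 genes; NGFR was the member farthest to the right among the filled points and ZIC5 farthest to the left.

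In the test of the 4 origins 25 of the 65 list genes passed (38.5%), close to the 39.4% of all genes. Of the NuRD subunits 5 of 15 passed (CHD3, MTA2, MTA3, RBBP7 and CDK2AP1), as did 5 of 8 cereblon genes, among them CRBN itself, summed from 41.1% of the reads implied by the authors' mean, and 7 of 10 developmental C2H2 factors. In the SALL2 list 1 of 11 passed (CDKN1A), in the pluripotency list 3 of 7 (SOX2, LIN28B and ESRRB), and in the nephron progenitor list 2 of 9 (SIX2 and GDNF). ESRRB ran from 1.79 CPM in clone 5 to 21.6 CPM in the polyclonal population.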

How the data were processed

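The authors sequenced polyadenylated RNA with a stranded kit and ran Salmon on GRCh38 RefSeq transcripts. For each of 158867 transcripts they deposited an estimated count, a TPM value and lengths, and a DESeq2 (2.11.40.6) table whose mean of normalized counts (signal) was used only to see how many of a gene's reads were summed. Its columns of fold changes and p-values were not used. Transcripts were matched to RefSeq symbols (72.6% matched, 89.9% to 91.1% of reads), and estimated counts were summed per gene and rounded. Tests used filterByExpr, TMM and edgeR 4.0.16 (quasi-likelihood test, Benjamini-Hochberg adjustment at 0.05) in R 4.3.3, without a block, since the methods name none, and with origin as a block. Deviations of log2 CPM (prior count 2) from group means correlated at 0.406, 0.546, 0.590 and 0.582 within the polyclonal population and clones 3, 5 and 6, and between -0.395 and 0.179 across origins. The pairing by origin comes from the labels, which name the clone or population that both libraries were grown from.

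Alternatives were DESeq2 1.42.0, its size factors, 2 other filters, effective lengths as offsets and omission of each origin. Ratios within an origin had 0.5 counts added. The members, lists and tests were chosen with earlier results of these data known. Named genes were the family, FEZF1, the 5 tested genes most correlated with each SALL gene, the 2 nearest protein-coding genes per side, and from each list the members called plus the 2 most abundant. Genes named for a difference among origins, for a read share under 80% or for absence were named after their values were seen. From the lists 3 genes, and 1 gene most correlated with a SALL gene, are not reported here. Fits were tested on simulated data, where DESeq2 with the block and the test of the 4 origins made false calls at rates above the threshold of 0.05. RefSeq promoters were given for 2 of the 4 genes (SALL2 and SALL3). Python 3.11.15, pandas 2.3.3, numpy 2.4.6, scipy 1.17.1 and matplotlib 3.10.9 were used. Nothing in the labels says that the libraries of an origin came from cultures grown apart in time, and p-values measure the spread between these libraries.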

Additional observations from a re-analysis of the deposited data

Results flagged for a closer look

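Of 18 groups of 4 libraries examined for an outlying value (FEZF1, the SALL genes, the SALL2 transcripts and depth), 1 was set apart, and chance gives about 1 in 20. It was SALL4 in the clone 6 control, at 0.442 CPM, beside 2.28 to 2.61 CPM in the other 3 controls. Its gap to the next library was 0.845 of the group's range, above Dixon's critical value for 4 values.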

How the results depend on the processing

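The number of genes called between doxycycline and control depended on the model. It was 1 without a block, 232 with DESeq2, 1221 with the replicate block and 1920 with DESeq2 and the block. Leaving out 1 origin gave 0 to 2 genes without the block and 175 (without clone 5), 230 (clone 6), 461 (clone 3) and 699 (polyclonal population) with it. Members of the 7 lists called were 0 without a block, 5 with DESeq2, 12 with the replicate block and 14 with DESeq2 and the block, and leaving out 1 origin gave 0 without the block and 3 (without clone 5 or 6), 5 (clone 3) and 7 (polyclonal population) with it. The combinations with the block were added after the data were seen. For the difference among origins, leaving out 1 origin gave 2970 (without clone 6) to 5300 genes in place of 6300, and 13 to 22 list members in place of 25. Over the 20 fits, with and without the block, the log2 fold change of SALL2 ran from -0.66 to -0.54, that of SALL4 from 0.83 (block, without clone 5) to 1.33, and that of SALL1 from -0.14 (without clone 5) to 0.13 (block, without clone 6). The pairing by origin left the SALL values close to those without it, at -0.60 for SALL2. The adjusted p of FEZF1 with edgeR was 0.29 without a block, 0.591 to 0.768 with 1 origin left out, and 0.00594 with the block, whereas with DESeq2 it was 0.0152 without the block and 1.08e-18 with it. SALL3 gave no value under any alternative. The cause of these differences was not tested. Depth limits SALL3, at 0 reads in all 8 libraries, and SALL4, with as few as 11.3 reads in a library.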
